A study of Danio rerio with 14 samples.

Results

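Zebrafish embryos that lacked the repressor gene ahrra were compared with wild-type embryos that had received the same solvent and no dioxin, to describe the basal difference between the genotypes across all genes. The comparison used 4 ahrra-null libraries (numbered 9 to 12) and 3 wild-type libraries (numbered 2, 3 and 4), chosen by their titles, which are 7 of the 14 RNA sequencing libraries of the series. All of these embryos carried the strain label Tupfel longfin, were kept for 1 h in 0.01% dimethyl sulfoxide (DMSO) from 6 hours post-fertilization (hpf), were then rinsed, and gave total RNA of whole embryos at 72 hpf. The null line had been made with zinc finger nucleases, which cut a chosen site and leave small insertions or deletions. The other 7 libraries, 3 wild-type and 4 ahrra-null, came from embryos given 2 nM of the dioxin TCDD in the same window, and they are used below as a second set in which the genotype difference could be measured again. The labels give neither the lesion, nor the number of embryos or clutches behind a library, nor whether wild-type and null embryos were siblings. The p-values therefore measure the spread between these libraries, which may be partly technical, and the loss of ahrra and any other difference between the stocks cannot be told apart.

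The aryl hydrocarbon receptor (AHR) is a ligand-activated transcription factor that pairs with ARNT and switches on genes of xenobiotic metabolism, above all the cytochrome P450 genes of family 1. The AHR repressor is induced by the receptor, also pairs with ARNT, occupies the same response elements and damps transcription from them, which closes a negative feedback loop. Zebrafish carry a duplicated pair of repressor genes, ahrra and ahrrb, and ahr2 encodes the receptor that mediates most dioxin toxicity in the embryo.

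Depth was even: the wild-type DMSO libraries held between 18340049 and 19428040 counts and the ahrra-null DMSO libraries between 18691491 and 22705438. Over all 14 libraries the first principal component of log2 expression, with 42.1% of the variance, put the wild-type libraries on one side and the ahrra-null libraries on the other, and the second, with 11.8%, separated DMSO from TCDD. Levels are given in CPM, counts scaled to the depth of each library, in the order wild-type 2, 3 and 4, then ahrra-null 9, 10, 11 and 12. Differences are log2 fold changes, ahrra-null minus wild type, with their standard error (SE), and a gene was called when its Benjamini-Hochberg adjusted p in edgeR's quasi-likelihood test fell below 0.05. Symbols are those of the name table, which writes many zebrafish genes in capitals. Where several gene IDs share a symbol the ID is given, and close copies may have shared reads.

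Under DMSO the targeted gene itself was measured at a very low level and did not separate the genotypes. ahrra stood at 1.39, 0.612 and 0.81 CPM in wild type and at 1.09, 1.42, 0.879 and 1.19 CPM in the null, so the groups overlapped, and its difference of 0.30 ± 0.75 had an adjusted p of 0.824. A small nuclease lesion can leave the transcript in place, and the position of the lesion was not given, so this level does not check the genotype. The paralog ahrrb (-0.27 ± 0.45, adjusted p = 0.719) and the receptor ahr2 (-0.09 ± 0.065, adjusted p = 0.35) were not called either, with overlapping libraries in each case. ahr2 ranged from 66.4 to 71.0 CPM in wild type and from 60.3 to 68.1 CPM in the null.

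With solvent alone, no gene of the AHR target list was called higher in embryos lacking the repressor. Of 18 target genes tested, 0 were called higher and 4 lower. That share of calls was close to that of all genes, of which 21.6% were called. The median difference of the list was -0.27, against -0.01 over all genes, and 15 of the 18 values were negative. The mean log2(CPM + 0.1) of the list was 2.90, 2.87 and 2.60 in wild type and 2.61, 2.40, 2.53 and 2.52 in the null. Wild-type library 4 thus lay within the null range. CYP1A1, the classic dioxin-induced monooxygenase, stood at 6.61, 8.06 and 5.56 CPM in wild type and at 4.78, 4.36, 3.35 and 3.75 CPM in the null. All 4 null libraries lay below all 3 wild-type libraries, but the difference of -0.73 ± 0.46 was not called (adjusted p = 0.298). In 22 alternative fits the scaling, filter or tool was changed, libraries were left out, or 1 surrogate variable was added. Such a variable is a covariate estimated from the data for variation that the groups do not explain. The adjusted p of CYP1A1 ran from 0.00542 with the 7 DMSO libraries fitted alone to 0.704 with 1 surrogate variable. The gene was called lower in 2 of these fits, that of the 7 DMSO libraries and that without ahrra-null TCDD library 15 (adjusted p = 0.0287). Both leave out that TCDD library. CYP1A1 stood there at 465 CPM, against 1057, 1103 and 1094 CPM in ahrra-null TCDD libraries 13, 14 and 16. The SE of the main fit takes in the spread of the TCDD libraries, and what library 15 adds to it was not tested. cyp1c1 had the same kind of pattern (12.7, 16.1 and 12.9 against 11.7, 10.8, 9.72 and 10.8 CPM, adjusted p = 0.36), whereas CYP1B1, cyp1c2 and cyp1d1 overlapped between genotypes. It was called lower in the same 2 fits, cyp1c1 having an adjusted p of 0.0311 and 0.00449 there. tiparp, which encodes an ADP-ribosyltransferase that also feeds back on the receptor, was not called at 0.21 ± 0.1 (adjusted p = 0.164). Its 4 null libraries (49.5, 49, 48 and 52.5 CPM) nevertheless all lay above its 3 wild-type libraries (38.4, 46.4 and 44.1 CPM).

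The 4 target genes that were lower belong to detoxification of the products that such monooxygenases make. gstp1.2, a glutathione S-transferase, fell from 201, 195 and 175 CPM in wild type to 129.9, 118, 139.8 and 146 CPM in the null. That was a difference of -0.51 ± 0.093 (adjusted p = 0.000975), with no overlap. NQO1, the quinone reductase, was lower by a smaller amount, from 34.5, 31.4 and 32.4 CPM to 27.5, 23.4, 24.7 and 25.5 CPM (-0.37 ± 0.082, adjusted p = 0.00225). Both of these calls were kept in all 22 alternative fits. The related transferase gstp1.1 (-1.3 ± 0.37, adjusted p = 0.0202) and the glucuronosyltransferase ugt1b1 (-0.7 ± 0.23, adjusted p = 0.0442) were called in 18 and 10 of them. The number of target genes called lower was 2 without wild-type library 2 or 3 and 2 with 1 surrogate variable. It was 6 with the 7 DMSO libraries fitted alone, where CYP1A1 (adjusted p = 0.00542) and cyp1c1 (adjusted p = 0.0311) were also called lower. It was 8 without ahrra-null TCDD library 15, which entered the shared estimate of the spread.

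Components of the receptor pathway also gave few calls, with 0 of 21 higher and 3 lower. That is 14.3% called, against 21.6% of all genes, and the median difference was 0.04. These 3 were the co-chaperone gene PTGES3 in both its copies, at -0.27 ± 0.057 for ENSDARG00000037284 (adjusted p = 0.00135) and -0.29 ± 0.066 for ENSDARG00000089626 (adjusted p = 0.00278), and the HSP90 gene hsp90aa1.1. All 3 encode parts of the chaperone complex that holds the unliganded receptor and many other client proteins.

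Across the transcriptome the difference was broad and mostly small. Of 21606 genes tested, 4670 were called, or 21.6%. Of these, 2141 were higher in the null (9.91% of the genes tested) and 2529 lower (11.7%). The median size among the called genes was 0.40 on the log2 scale, or 1.32-fold, and 663 genes (3.07%) were called with a change of at least 2-fold, 299 of them higher and 364 lower. At least 4-fold were 71 genes higher and 60 lower. The 3 wild-type and 4 null libraries did not overlap for 26.1% of the genes tested and for 82.8% of the genes called. Leaving out wild-type library 2 left 2844 calls, of which 2714 were among the 4670.

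Most of the largest fold changes were in genes of very low level. Of the genes called with at least a 4-fold change, 55 of the 71 higher and 46 of the 60 lower had an average log2 CPM under 1. The 10 largest rises and 10 largest falls given here are ranked among called genes without overlap at an average log2 CPM of at least 1. Genes with no symbol, or with only a clone or locus name, were left out of this ranking whatever their fold change. The ranked genes are of unrelated kinds. FBN2, a fibrillin of extracellular microfibrils, stood at 1.55, 0.51 and 0.486 CPM in wild type and at 10.9, 10.3, 11.2 and 7.64 CPM in the null. Its difference of 3.55 ± 0.31 is an 11.7-fold rise (adjusted p = 1.46e-06), and every null library lay far above every wild-type library. A pair of numbered members of an F-box family, fbxo44.9 and fbxo44.10, which belong to the substrate-binding parts of ubiquitin ligases, rose together. fbxo44.9 went from 2.77, 1.33 and 1.78 CPM to 10.6, 11.5, 13.2 and 11.3 CPM (2.57 ± 0.23, adjusted p = 6.25e-07), and fbxo44.10 from 1.6, 1.28 and 1.13 CPM to 6.39, 7.52, 6.04 and 6.36 CPM (2.29 ± 0.23, adjusted p = 4e-07). Copies of this family may exchange reads. Also among the 10 largest rises were the relaxin receptor RXFP2 (ENSDARG00000032820, 2.51 ± 0.21, adjusted p = 3.64e-07), the protein kinase PRKCH (ENSDARG00000018382, 2.15 ± 0.22, adjusted p = 4.39e-07), slx4ip, whose human protein interacts with a structure-specific nuclease scaffold (1.85 ± 0.19, adjusted p = 1.44e-06), and the actin gene actc1c (1.92 ± 0.41, adjusted p = 0.00748). The remaining rises were SERPINB1 (ENSDARG00000070396) and GPI (ENSDARG00000103826), whose null libraries differed widely among themselves. For GPI, a glycolytic isomerase, they stood at 10.5, 22.6, 30.4 and 8.79 CPM against 3.95, 6.02 and 5.67 CPM in wild type, and the call (adjusted p = 0.0252) was kept in 16 of 22 alternative fits.

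A gene among the largest rises had a counterpart of the same symbol that moved the other way. RRM2 encodes the small subunit of ribonucleotide reductase, which makes the deoxynucleotides for DNA synthesis, and 2 tested gene IDs carry this symbol. ENSDARG00000078069 rose from 2.4, 2.65 and 1.13 CPM to 9.6, 13.8, 17.6 and 11.2 CPM (2.64 ± 0.43, adjusted p = 0.00173). ENSDARG00000020711 fell from 25.4, 24.6 and 36.9 CPM to 19.1, 13.6, 10.3 and 20.6 CPM (-0.85 ± 0.23, adjusted p = 0.0222, a call kept in 18 of 22 alternative fits). Summed over both IDs, the level was 27.8, 27.3 and 38.0 CPM in wild type and at 28.7, 27.4, 27.9 and 31.9 CPM in the null. The sums overlapped between the genotypes, and the log2 ratio of their means was -0.10.

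Among the falls ranked in the same way, at an average log2 CPM of at least 1 and without overlap, the steepest was that of ms4a17a.9, a membrane-spanning 4-domain gene. It went from 11.9, 8.98 and 10.9 CPM to 1.23, 0.526, 1.04 and 1.56 CPM (-3.25 ± 0.26, or 9.5-fold, adjusted p = 3.7e-07). The prostaglandin D synthase gene ptgdsb.1 went from 106, 81.8 and 56.6 CPM to 13.3, 12.4, 15.5 and 14.7 CPM (-2.54 ± 0.19, adjusted p = 6.02e-06). PIPOX, a peroxisomal oxidase of amino acid breakdown, went from 6.34, 6.38 and 5.13 CPM to 1.18, 0.841, 0.934 and 1.28 CPM (-2.47 ± 0.16, adjusted p = 3.99e-10). In these 3 genes the 4 null libraries were all far below wild type, though in ms4a17a.9 they ranged from 0.526 to 1.56 CPM. plekhf1 (-2.19 ± 0.14, adjusted p = 2.92e-10), the metalloproteinase mmp30 (-2.17 ± 0.31, adjusted p = 0.000553), the hatching enzyme he1.1 (-2.06 ± 0.26, adjusted p = 0.000139) and the plexin plxnb2a.2 (-2.01 ± 0.3, adjusted p = 8.12e-05) were also lower without overlap. The myosin heavy chain gene myhc4 fell from 208, 203 and 96.5 CPM to 42.4, 26.8, 22.2 and 51.7 CPM (-2.23 ± 0.36, adjusted p = 0.00171).

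**Figure D1:**
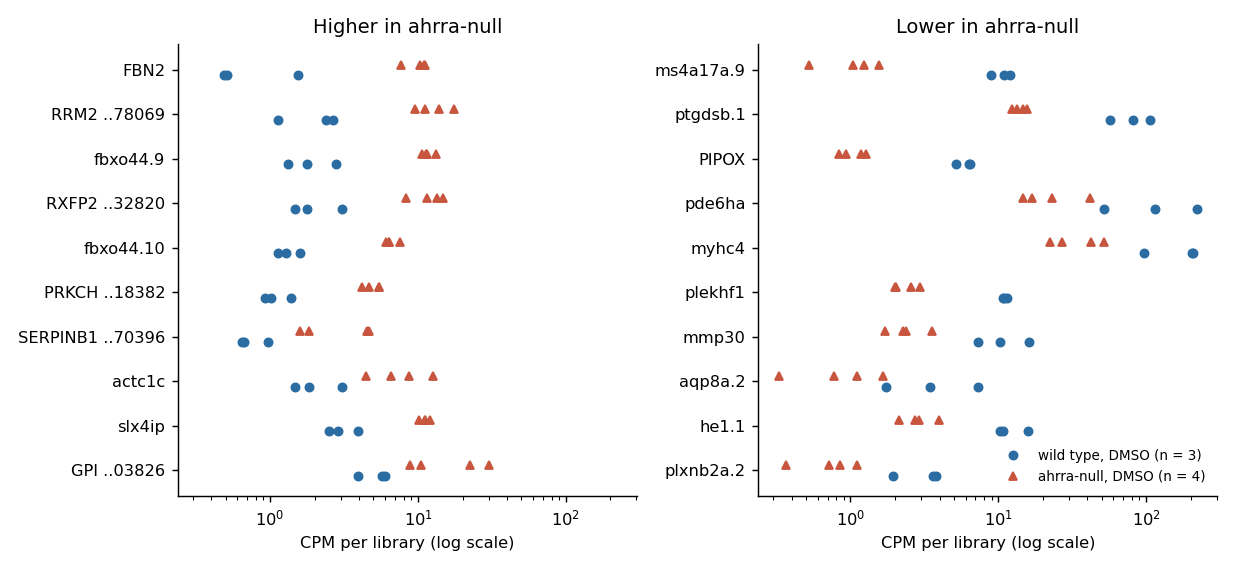
CPM in each DMSO library (log axis) of the 10 largest rises and the 10 largest falls among called genes without overlap whose average log2 CPM reached 1, with wild type (n = 3) as blue circles and ahrra-null (n = 4) as red triangles. Genes with no symbol, or with only a clone or locus name, were left out of the ranking. FBN2 sits between 7.64 and 11.2 CPM in the null and at or below 1.55 CPM in wild type, whereas pde6ha and aqp8a.2 spread widely within wild type.

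Among well expressed genes (average log2 CPM of 5 or more) ranked in the same way, the rises were led by PNP (ENSDARG00000078619), a purine nucleoside phosphorylase. It stood at 24.0, 24.2 and 23.2 CPM in wild type and at 66.2, 64.8, 59.3 and 92.4 CPM in the null (1.57 ± 0.12, adjusted p = 1.02e-06). The linker histone gene histh1l1 rose from 244, 244 and 211 CPM to 667, 670.1, 589 and 608 CPM (1.44 ± 0.069, adjusted p = 1.65e-12). Neither gene had a null library near the wild-type range. ARRDC3 (ENSDARG00000036028), an arrestin-domain protein, and alas2, the erythroid enzyme that starts heme synthesis, differed by 1.24 ± 0.074 (adjusted p = 2.05e-10) and 1.05 ± 0.077 (adjusted p = 1.91e-09). The other well expressed rises included GPATCH3 (1.24), the lysosomal protease CTSB (1.1) and the matricellular factor CCN1 (1.02). Among the falls of the same class, ZNF292, a zinc finger gene, went from 176, 215 and 274 CPM to 91.0, 103, 103 and 94.3 CPM (-1.18 ± 0.12, adjusted p = 3.02e-05), and FLNC (ENSDARG00000018566), a filamin of muscle, from 96.0, 143 and 99.5 CPM to 42.9, 49.6, 48.4 and 60.0 CPM (-1.17 ± 0.15, adjusted p = 0.000369).

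Gene lists for tissues and pathways were counted against the background of 9.91% called higher and 11.7% called lower. Some list members named below lie outside the naming rule and were chosen after their values were seen, to show what a list holds. Calls of genes that passed the filter on low counts through 1 genotype only are no support for a count. Besides the lists where this is stated, they make up 1 lower call each in the intestine, neutrophil and macrophage, interferon, glia and retinoid lists. In the zinc finger list they make up 1 lower and 2 higher calls. Over all genes tested, 65 lower and 90 higher calls were of this kind.

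**Figure D2:**
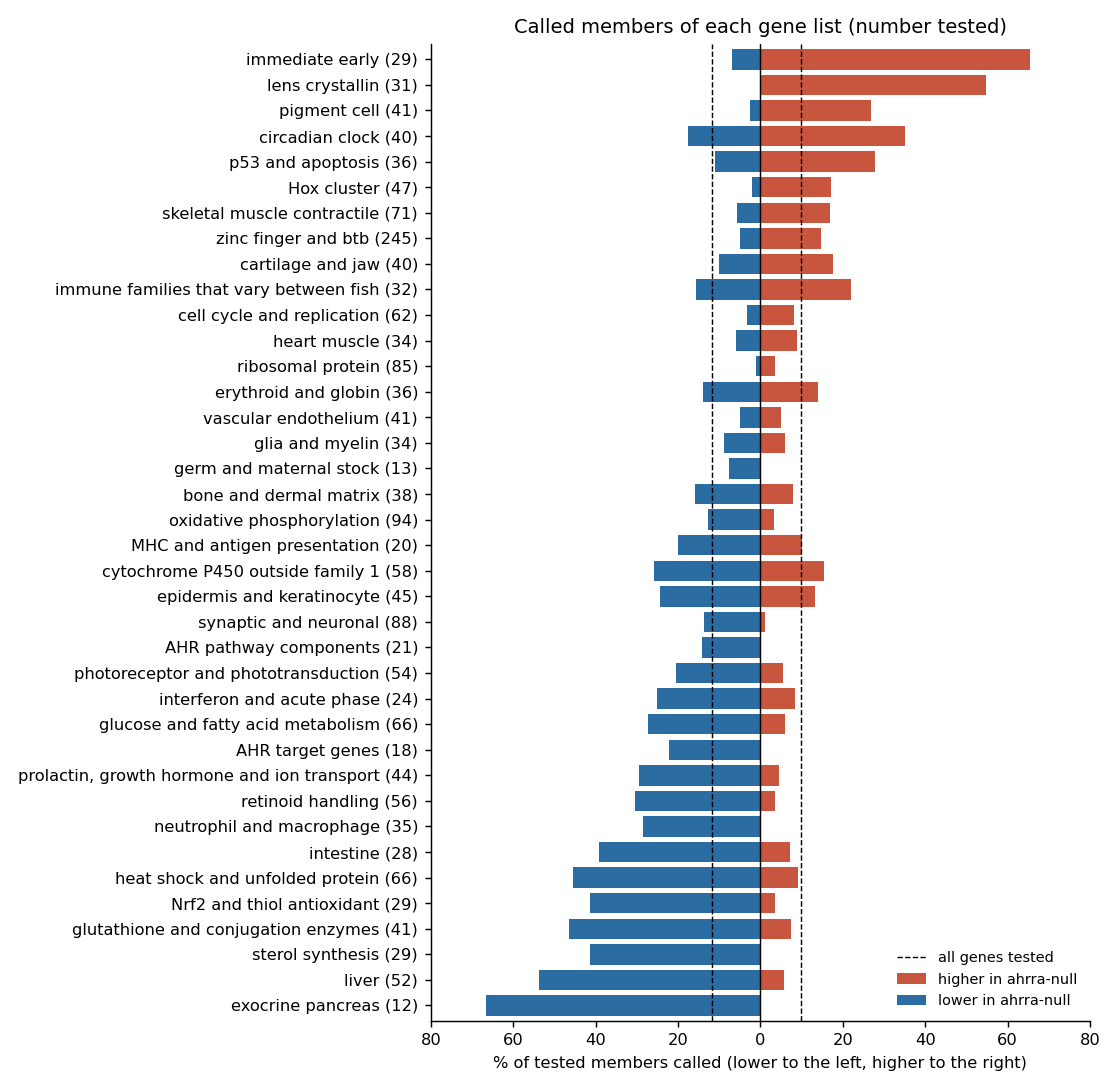
Share of the tested members of each gene list (number tested in brackets, lists of at least 12) called higher in the null (red, to the right) or lower (blue, to the left), with dashed lines at 9.91% and 11.7%, the shares over all genes tested. Immediate early and lens genes extend farthest to the right, and pancreas and liver genes farthest to the left.

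Immediate early genes, which are transcribed within minutes of a stimulus without new protein synthesis, were higher in the null as a group. Of 29 tested, 19 were called higher and 2 lower, and the median difference was 0.47. NR4A1, an orphan nuclear receptor, rose from 26.4, 20.6 and 16.3 CPM to 51.5, 61.3, 53.2 and 56.7 CPM (1.4 ± 0.17, adjusted p = 0.000161). FOS, the partner of JUN in the AP-1 factor, rose from 10.1, 10.5 and 8.04 CPM to 22.2, 28.6, 17.3 and 29.2 CPM (1.35 ± 0.25, adjusted p = 0.00338). Neither overlapped. DUSP1, a phosphatase that switches off MAP kinases, differed by 0.83 ± 0.077 (adjusted p = 1.14e-07), ier2b by 0.83 ± 0.12 (adjusted p = 2.55e-05) and ier2a by 0.75 ± 0.11 (adjusted p = 2.68e-05). FOSB showed the largest difference of the list at 1.95 ± 0.33, at levels from 0.427 to 2.21 CPM. JUN itself moved little (0.3 ± 0.056, adjusted p = 0.000464). The members called lower were klf2b, at -0.75 ± 0.12 (adjusted p = 0.000614), whose paralog klf2a, a flow-responsive factor of endothelium, was called higher at 0.6 ± 0.12 (adjusted p = 0.00188), and SOCS3 (ENSDARG00000026611, -0.27). The number called higher lay between 17 and 21 in every alternative fit.

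Of the well expressed rises, SIK1, a salt-inducible kinase that follows cyclic AMP, is outside the immediate early list and went from 35.3, 36.5 and 32.0 CPM to 82.5, 100.1, 73.2 and 85.3 CPM (1.3 ± 0.13, adjusted p = 2.24e-05). GADD45B (ENSDARG00000027744), a stress-responsive gene, went from 21.1, 19.8 and 15.9 CPM to 49.4, 61.8, 50.8 and 54.8 CPM (1.52 ± 0.11, adjusted p = 2.21e-08). In the list of p53 targets and apoptosis genes, to which GADD45B belongs, 10 of 36 were higher and 4 lower, with a median of 0.02. The cell cycle inhibitor cdkn1a rose from 3.41, 3.57 and 2.59 CPM to 6.29, 6.78, 5.77 and 6.73 CPM (1.0 ± 0.15, adjusted p = 6.69e-05). APAF1, the scaffold of the apoptosome, fell from 38.9, 43.5 and 50.8 CPM to 25.4, 26.7, 27 and 26.1 CPM (-0.76 ± 0.082, adjusted p = 8.35e-07).

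The circadian clock turns on a loop in which CLOCK and BMAL proteins drive period and cryptochrome genes, whose products repress that drive, and in zebrafish many peripheral cells are directly set by light. Of 40 clock genes tested, 14 were called higher and 7 lower, which is 52.5% of the list. ciarta, a repressor of CLOCK and BMAL, stood at 59.1, 56.8 and 57.6 CPM in wild type and at 108, 114, 106 and 108 CPM in the null (0.92 ± 0.057, adjusted p = 2.05e-10). PER1 (ENSDARG00000012499) went from 75.0, 64.9 and 73.6 CPM to 142, 146, 131 and 128 CPM (0.94 ± 0.061, adjusted p = 2.92e-10). The spread within each genotype was small beside these differences. The second PER1 gene (ENSDARG00000056885, 1.48 ± 0.2), dbpb, an output factor of the loop (1.37 ± 0.23), nr1d2a, a repressor of BMAL genes (1.01 ± 0.13), and CRY2 (0.48 ± 0.073) were higher as well. Other members of the cryptochrome and photolyase family were lower. cry3b fell from 50.6, 49.9 and 59.3 CPM to 28.1, 27.6, 27.7 and 28.9 CPM (-0.92 ± 0.075, adjusted p = 1.11e-08), and cry5 (-1.01 ± 0.16) and cry-dash (-0.53 ± 0.11) did so too. The hour at which each library was sampled is not in the labels, and its part in these differences was not tested. Without wild-type library 3 the higher count was 9, and without wild-type library 2, or with 1 surrogate variable in the model, the lower count was 4.

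Chaperone genes were more often lower than higher. In the list of heat shock and unfolded protein response genes, 30 of 66 were called lower and 6 higher, with a median of -0.17, and 54 of the 66 differences were negative. The cytosolic chaperone gene hsp90aa1.1, which in fish embryos is prominent in muscle, fell from 108, 110.5 and 67.2 CPM to 36.8, 33.1, 40.4 and 41.6 CPM (-1.33 ± 0.16, adjusted p = 0.000245). UNC45B, the myosin co-chaperone that works with it, fell from 42.3, 42.1 and 33.6 CPM to 22.1, 21.5, 23.0 and 24.9 CPM (-0.78 ± 0.077, adjusted p = 2.01e-07). Both were separated without overlap. SMYD1 (ENSDARG00000009280), a muscle methyltransferase that takes part in the same myosin assembly, was in contrast higher, at 0.64 ± 0.083 (adjusted p = 2.05e-05).

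Among the list members called lower, HSPD1 and HSPE1 encode the barrel and the lid of the mitochondrial chaperonin. HSPD1 stood at 217, 172 and 176 CPM in wild type and at 115, 115, 119 and 133 CPM in the null (-0.64 ± 0.068, adjusted p = 5.16e-07), and HSPE1 differed by -0.5 ± 0.075 (adjusted p = 6.66e-05). HSPA9, the mitochondrial HSP70, went from 316, 265 and 276 CPM to 206, 203, 194 and 205 CPM (-0.5 ± 0.056, adjusted p = 1.08e-06). The stress-inducible hspa1b had the largest fall of the list at -1.59 ± 0.31 (adjusted p = 0.00465), with wild-type libraries at 12, 22.5 and 7.83 CPM. Members of the endoplasmic reticulum, such as HSPA5 (-0.34) and HYOU1 (-0.31), were lower by smaller amounts, whereas PDIA6 (0.56), CALR (0.27) and atf6 (0.24) were higher. The small heat shock gene hspb9l, outside the list, fell from 48.8, 75.0 and 47.5 CPM to 21.4, 26.3, 23.0 and 29.3 CPM (-1.19 ± 0.19, adjusted p = 0.00144). The lower count lay between 23 and 32 over the alternative fits.

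**Figure D3:**
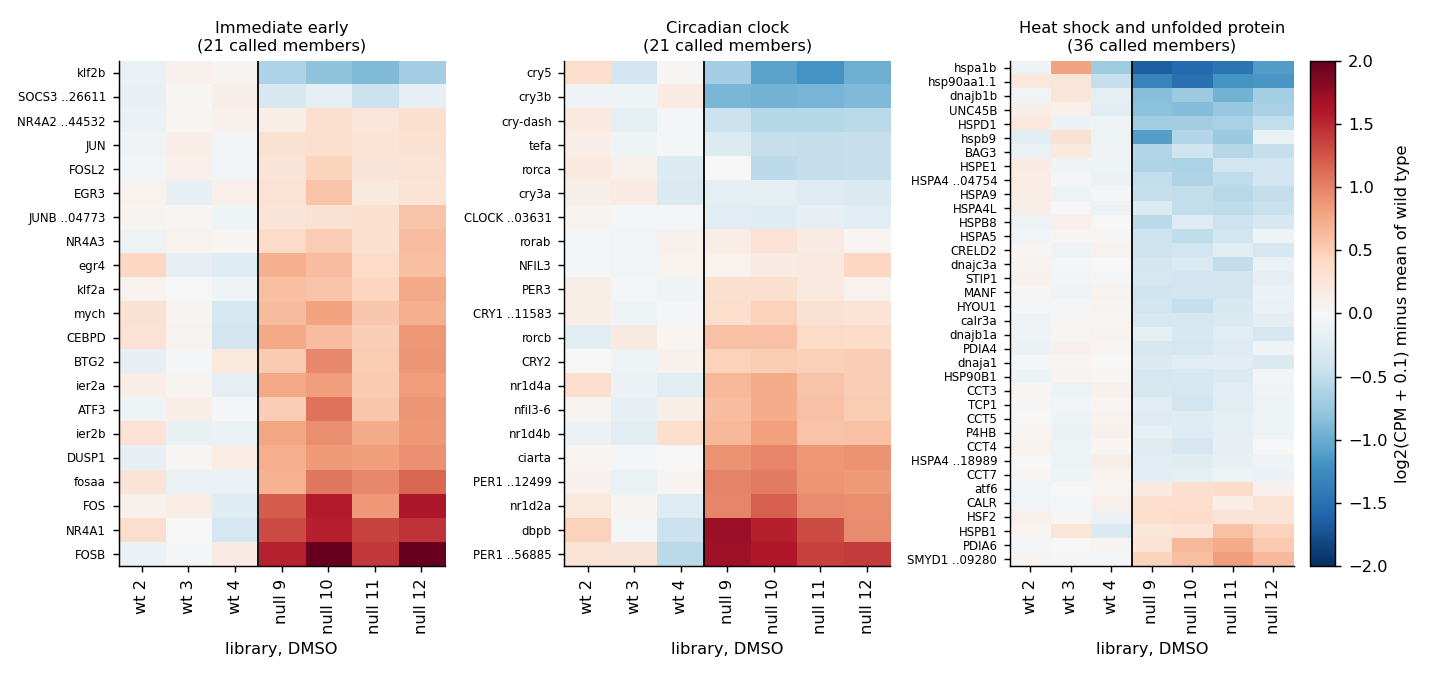
Called members of the immediate early, circadian clock and heat shock lists, one row per gene and one column per DMSO library, coloured by log2(CPM + 0.1) minus the mean of the 3 wild-type libraries, from blue (lower) to red (higher). The 19 immediate early genes called higher are red in the 4 null columns, the clock panel divides into 14 higher and 7 lower genes, and the chaperone panel is mostly blue.

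Enzymes that handle oxidants and thiols were lower in part. Of 29 Nrf2 and thiol antioxidant genes, 12 were called lower and 1 higher, with a median of -0.14. They included the superoxide dismutases SOD1 (-0.43 ± 0.081, adjusted p = 0.000741) and SOD2 (-0.52 ± 0.091, adjusted p = 0.000506), catalase (CAT, -0.32 ± 0.059, adjusted p = 0.000454) and glutathione reductase (GSR, -0.45 ± 0.083, adjusted p = 0.000394). prdx1 (ENSDARG00000058734), a peroxiredoxin, fell from 27.9, 24.3 and 26.5 CPM to 17.8, 17.7, 18.8 and 20.6 CPM (-0.48 ± 0.078, adjusted p = 0.000126), with no overlap. The member called higher was SOD3 (ENSDARG00000070168, 1.0 ± 0.36, adjusted p = 0.0491), a call kept in 6 of 22 alternative fits. The lower count lay between 10 and 13 throughout.

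Glutathione and conjugation enzymes, which make xenobiotics and hormones soluble, showed 19 of 41 tested members lower and 3 higher, with a median of -0.42. GSTM3 (ENSDARG00000088116) went from 17.4, 14.7 and 16.8 CPM to 10.2, 10.2, 8.79 and 10.7 CPM (-0.71 ± 0.1, adjusted p = 4.42e-05), and gsta.1 from 24.7, 19.6 and 16 CPM to 11.4, 11, 11.4 and 12.1 CPM (-0.81 ± 0.12, adjusted p = 0.000109). The glucuronosyltransferase ugt5b3 was measured at a low level, at 1.92, 1.38 and 1.51 CPM in wild type and between 0.263 and 0.52 CPM in the null (-2.18 ± 0.37, adjusted p = 0.000202). It passed the filter on low counts through wild-type libraries only, so its fall is no support for the count. gstt1b ran against the list, from 7.84, 7.04 and 5.99 CPM to 10.5, 12.4, 13.2 and 10.6 CPM (0.74 ± 0.12, adjusted p = 7.95e-05). The lower count was 12 without wild-type library 2 and 9 with 1 surrogate variable.

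The cytochrome P450 genes outside family 1 were mixed, with 9 of 58 higher and 15 lower, and with 7 higher and 5 lower when 1 surrogate variable was in the model. cyp2aa3 rose from 0.533, 1.28 and 0.918 CPM to 2.27, 3.05, 3.3 and 2.65 CPM (1.61 ± 0.23, adjusted p = 2.3e-05). cyp11c1, the steroid hydroxylase of the last step to cortisol, rose from 7.25, 8.06 and 7.23 CPM to 13.8, 12, 14.2 and 10.8 CPM (0.76 ± 0.12, adjusted p = 8.6e-05). The falls included liver enzymes of bile acid synthesis. CYP7A1, which catalyses the rate-limiting step, differed by -1.66 ± 0.3 (adjusted p = 0.000382), CYP8B1 (ENSDARG00000053068) by -1.71 ± 0.26 (adjusted p = 9.95e-05) and cyp4t8, a member of the fatty acid hydroxylase family, by -1.32 ± 0.19 (adjusted p = 2.3e-05).

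Liver genes were lower as a group. Of 52 tested, 28 were called lower and 3 higher, and the median difference was -0.62. Because RNA came from whole embryos, fewer cells of a type and less RNA per cell cannot be told apart here or in the tissue lists that follow. The fibrinogen chain gene fga stood at 37.7, 32.4 and 26.1 CPM in wild type and at 15.1, 15.8, 19.1 and 15.7 CPM in the null (-0.97 ± 0.13, adjusted p = 5.55e-05). GC, the vitamin D binding protein, went from 5.6, 5.25 and 2.92 CPM to 1.47, 1.42, 1.59 and 1.37 CPM (-1.65 ± 0.22, adjusted p = 1.45e-05). Complement c9 differed by -0.82 ± 0.13 (adjusted p = 9.94e-05), coagulation factor F10 by -1.29 ± 0.18 (adjusted p = 0.000248) and apolipoprotein apoea by -1.11 ± 0.21 (adjusted p = 0.00394). The members called higher were apobb.2 (1.38), cfh (0.85) and itih3a.1 (0.79).

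The wild-type DMSO libraries were themselves graded, in the tissue lists of the digestive organs and in other lists. Their scores on the first principal component were graded too, at -36.9, -31.0 and -24.8 for libraries 2, 3 and 4. The mean log2(CPM + 0.1) of the liver list was 3.35, 3.07 and 2.65 in wild-type libraries 2, 3 and 4, and 2.5, 2.45, 2.60 and 2.32 in the null. For the intestine list it was 2.84, 2.41 and 1.97 against 1.85, 1.78, 1.83 and 1.58. Wild-type library 4 was thus nearest to the null, and its distance from library 2 was larger than its distance from the nearest null library in both lists. In the exocrine pancreas list library 4 fell within the null range, at 2.26, 1.42 and 0.40 in wild type against 0.42, 0.38, 0.39 and 0.11. The same order of the wild-type libraries, with library 4 within the null range, appears in the photoreceptor, AHR target and sterol synthesis lists. It appears in the list of glucose and fatty acid metabolism too. Further lists with it include those of P450 genes outside family 1, oxidative phosphorylation and synaptic genes. In the synaptic list the levels were 5.42, 5.40 and 5.24 against 5.36, 5.30, 5.23 and 5.11. Hox genes ran in the reverse order, at 3.34, 3.36 and 3.49, with library 4 within the null range (3.50, 3.45, 3.51 and 3.53). In the ion transport and pituitary hormone list library 4, at 2.83, lay below all null libraries (2.96, 2.87, 2.88 and 2.97). The same was true in the skeletal muscle list, at 7.78 against 7.93, 7.85, 8.03 and 7.97. Whether this gradient enters the genotype difference was not tested. The liver count of 28 lower was 17 without wild-type library 2, 33 without library 4 and 13 with 1 surrogate variable, and the higher count of 3 was 1 without library 4.

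**Figure D4:**
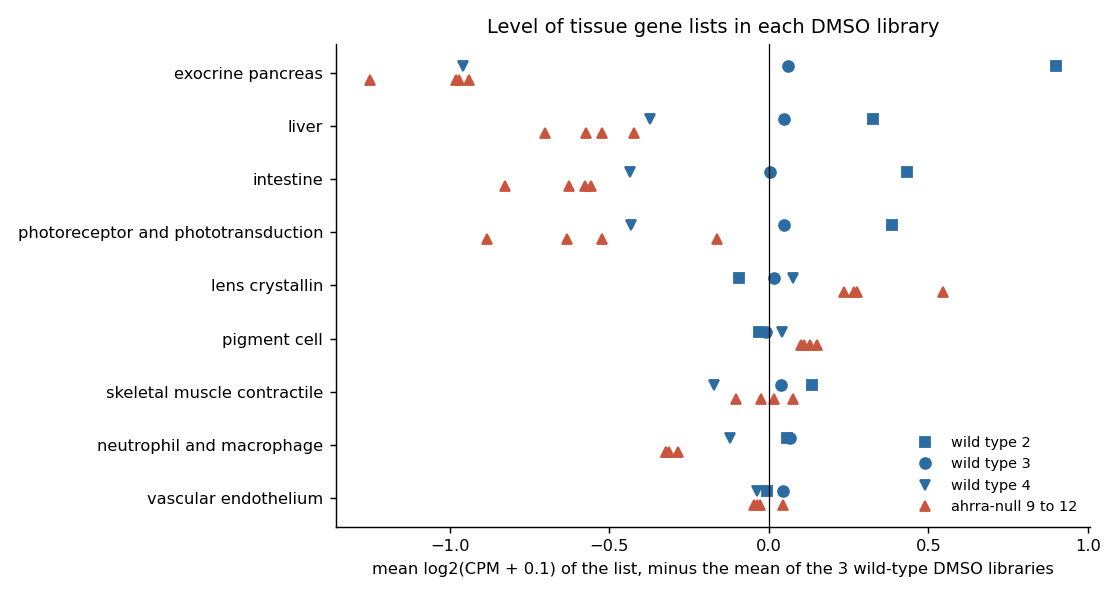
Mean log2(CPM + 0.1) of 9 tissue lists in each DMSO library, minus the mean of the 3 wild-type DMSO libraries, with wild-type libraries 2, 3 and 4 in blue by shape and the 4 null libraries as red triangles. Wild-type library 4 is the wild-type library nearest to the null in the pancreas, liver, intestine and photoreceptor lists, and in pancreas and photoreceptor it lies within the null range. The liver, intestine, lens, pigment cell and neutrophil and macrophage lists do not overlap between the genotypes, by a narrow margin in liver.

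Of 28 intestine genes tested, 11 were called lower and 2 higher, with a median of -0.71. RBP2 (ENSDARG00000093774), the retinol carrier of absorptive cells, fell from 17.2, 12.7 and 9.56 CPM to 4.64, 4.2, 4.45 and 3.8 CPM (-1.62 ± 0.17, adjusted p = 2.48e-06). MTTP, which loads lipid onto apolipoprotein B, fell from 15.7, 12.3 and 8.58 CPM to 6.43, 7.31, 6.92 and 5.86 CPM (-0.88 ± 0.18, adjusted p = 0.00207). In both genes the lowest wild-type library was library 4 and still lay above the null. The intestine count was 17 without that library, 8 without wild-type library 2 and 7 with 1 surrogate variable.

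Digestive enzymes of the exocrine pancreas were the list with the lowest median, -1.37, and 8 of the 12 members tested were called lower and 0 higher. Only 12 of 29 members passed the filter on low counts. The result leaned on a part of the wild-type libraries. One of the 8, the chymotrypsinogen gene ctrb.3, passed the filter through wild-type libraries only, so its fall (3.41, 1.63 and 0.378 CPM in wild type, 0.142 to 0.32 CPM in the null) is no support for the count. CPA1 (ENSDARG00000021339), a carboxypeptidase, stood at 7.41, 4.28 and 2.21 CPM against 2.22, 2.26, 1.92 and 1.97 CPM, so library 4 lay within the null range. The count was 3 without wild-type library 2, 2 with the 7 DMSO libraries fitted alone and 0 with 1 surrogate variable in the model. In the TCDD libraries the same list had a median genotype difference of 0.07, with 2 members higher and 0 lower.

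Sterol synthesis genes were lower in part. Of 29 tested, 12 were called lower and 0 higher, 27 of the 29 differences were negative, and the median was -0.30. The master regulator srebf2 went from 130.5, 127 and 119.6 CPM to 102, 101, 94.9 and 111 CPM (-0.3 ± 0.054, adjusted p = 0.000434). NSDHL (-0.92 ± 0.17, adjusted p = 0.000542), EBP (-0.67 ± 0.14, adjusted p = 0.0017) and LSS (-0.9 ± 0.2, adjusted p = 0.00253), enzymes between squalene and cholesterol, and the sterol carrier STARD4 (-0.52 ± 0.1, adjusted p = 0.000736) were all lower. Without wild-type library 2 the count was 6, and with 1 surrogate variable it was 5. The mean log2(CPM + 0.1) of the list was 3.39, 3.21 and 2.94 in wild type and 2.95, 2.86, 2.78 and 2.87 in the null. Wild-type library 4 thus lay within the null range.

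Part of the genes of energy metabolism were lower. Of 66 genes of glucose and fatty acid metabolism, 18 were lower and 4 higher. These counts were 12 and 8 without wild-type library 2 and 11 and 9 with 1 surrogate variable, and the higher count was 2 without wild-type library 3 or 4. hadhaa, a subunit of the mitochondrial trifunctional protein, stood at 50.1, 51.3 and 50.5 CPM in wild type and at 27.9, 27.3, 26.9 and 24.9 CPM in the null (-0.92 ± 0.1, adjusted p = 1.09e-05). ACADM, the medium-chain dehydrogenase, went from 129, 113 and 113 CPM to 79.2, 74.2, 78.1 and 78.6 CPM (-0.61 ± 0.065, adjusted p = 5.01e-07). Both belong to fatty acid oxidation and had tight libraries in both genotypes. HK2, a hexokinase, differed by -0.96 ± 0.13 (adjusted p = 2.81e-05). Subunits of oxidative phosphorylation gave 12 lower and 3 higher of 94, a share near the background. These counts were 6 lower and 1 higher without wild-type library 2. With 1 surrogate variable the balance turned, with 5 lower and 7 higher. Of the called subunits, ndufa4b was higher by 0.69 ± 0.1 and NDUFV1 lower by 0.37 (-0.37 ± 0.069).

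The eye showed differences of opposite sign. Lens genes, mostly crystallins, the packed proteins that make the lens transparent, were higher in 17 of 31 and lower in 0, with a median of 0.38. CRYAA, the small heat shock chaperone of the lens, rose from 33.5, 31.7 and 25.1 CPM to 50, 48.2, 50.5 and 62.7 CPM (0.81 ± 0.1, adjusted p = 9.31e-06). CRYBB1 rose from 728, 833 and 858 CPM to 1052, 1034, 1084 and 1304 CPM (0.47 ± 0.078, adjusted p = 0.00019). The lens membrane gene lim2.3 differed by 0.66 ± 0.079 (adjusted p = 2.61e-06). In each of these genes the null libraries lay above wild type and null library 12 was high within its group. Crystallin genes are clustered near-copies between which reads may be split. The crystallin CRYGN is outside the list. Its ID ENSDARG00000102129 was called lower (-0.94) and its ID ENSDARG00000030411 higher (0.61). The higher count of the list was 11 with 1 surrogate variable in the model and 13 without wild-type library 2. The mean log2(CPM + 0.1) of the lens list was 5.21, 5.32 and 5.38 in wild type and 5.57, 5.58, 5.54 and 5.85 in the null. Wild-type library 4 was thus nearest to the null here too.

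Photoreceptor genes were lower in their median (-0.68), and 47 of 54 differences were negative, but the calls were few and depended on single libraries and on the tool. Of the 54, 11 were called lower and 3 higher. The lower count was 5 without any one of wild-type libraries 2 and 3 and null libraries 10, 11 and 12, and it was 30 without wild-type library 4 and 33 without null library 9. On all libraries DESeq2 called 24 lower and limma voom 32. The phosphodiesterase subunit gene pde6ha was graded within both genotypes, with 219, 114 and 52.2 CPM in wild type and at 41.8, 22.9, 16.9 and 14.7 CPM in the null (-2.41 ± 0.48, adjusted p = 0.00526). The arrestin gene sagb, which quenches activated opsin, was more even, from 112, 84.8 and 66.6 CPM to 50.2, 48.2, 44.8 and 40.0 CPM (-0.94 ± 0.15, adjusted p = 0.00125), as was the cone transducin subunit GNGT2 (ENSDARG00000010680, -1.18 ± 0.21, adjusted p = 0.00322). The members called higher were the transcription factors that specify photoreceptors rather than the proteins of the light response. NR2E3 rose from 17.0, 17.9 and 20 CPM to 25.0, 30.4, 29.8 and 33.5 CPM (0.7 ± 0.1, adjusted p = 6.05e-05), crx (ENSDARG00000011989) differed by 0.32 ± 0.066 (adjusted p = 0.00137) and its copy CRX (ENSDARG00000043483) by 0.33 ± 0.089 (adjusted p = 0.0122).

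Genes that carry and convert retinoids were lower in 17 of 56 and higher in 2, with a median of -0.14. The retinal G protein-coupled receptor genes RGR and rgrb, which take part in regenerating the visual chromophore, were both lower. RGR went from 66.2, 52.6 and 44.3 CPM to 36.5, 32.1, 28.2 and 30.9 CPM (-0.77 ± 0.13, adjusted p = 0.000875), and rgrb from 58.2, 56.5 and 49.2 CPM to 37.1, 30.7, 30.3 and 38.5 CPM (-0.67 ± 0.086, adjusted p = 1.44e-05). The cellular retinol carrier rbp5 fell by less, at -0.4 ± 0.058 (adjusted p = 3.06e-05). Several of the called members are also liver, intestine or photoreceptor genes, and the lower count was 8 without wild-type library 2 and 11 with 1 surrogate variable or with the 7 DMSO libraries fitted alone.

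Pigment cell genes were higher in 11 of 41 and lower in 1, with a median of 0.08. The strongest of them make pteridines, the yellow pigments of xanthophores, or the purine precursors of iridophore crystals. gch2, the GTP cyclohydrolase that starts pteridine synthesis, stood at 102, 113 and 125 CPM in wild type and at 146, 144, 145 and 167 CPM in the null (0.41 ± 0.067, adjusted p = 0.000131). PTS, the next enzyme, rose from 17.6, 23.4 and 23.2 CPM to 32.3, 40.3, 37.1 and 43.4 CPM (0.84 ± 0.12, adjusted p = 0.000169), and SPR (ENSDARG00000058553), which completes tetrahydrobiopterin, from 2.4, 2.86 and 2.7 CPM to 5.3, 4.26, 4.56 and 5.72 CPM (0.91 ± 0.15, adjusted p = 0.000195). IMPDH1 (ENSDARG00000029524), of guanine nucleotide synthesis, differed by 0.34 ± 0.064 (adjusted p = 0.000571). The melanosome genes TYRP1 (ENSDARG00000029204, 0.29) and OCA2 (0.33) were also called higher. The count lay between 10 and 13 in all alternative fits.

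Leukocyte genes gave lower calls, and epidermal genes gave calls in both directions. Of 35 neutrophil and macrophage genes 10 were lower and 0 higher, with a median of -0.27. cyba, a subunit of the phagocyte oxidase, went from 8.37, 9.18 and 8.96 CPM to 6.1, 4.42, 5.71 and 5.72 CPM (-0.68 ± 0.12, adjusted p = 0.000386), and MMP9, a gelatinase of migrating cells, from 3.41, 4.69 and 4.54 CPM to 2.74, 2.37, 2.31 and 2.97 CPM (-0.69 ± 0.16, adjusted p = 0.00296). Neither overlapped. Among interferon and acute phase genes, with 2 of 24 higher and 6 lower, the cytokine signalling inhibitor SOCS1 was higher by 1.2 ± 0.16 (adjusted p = 1.38e-05) and irf9 lower, at -0.76 ± 0.13 (adjusted p = 0.000236). In epidermis and keratinocyte genes 11 of 45 were lower and 6 higher. The keratin cyt1l rose from 699, 515 and 459.8 CPM to 1127, 971, 1051 and 1160.4 CPM (0.95 ± 0.13, adjusted p = 0.000245), whereas krt99 fell from 5.33, 3.67 and 2.92 CPM to 1.7, 1.63, 1.37 and 1.6 CPM (-1.33 ± 0.22, adjusted p = 0.000195). The epidermal counts were 6 lower and 6 higher without wild-type library 2, 7 and 7 without wild-type library 3, and 5 lower and 8 higher with 1 surrogate variable. The lower interferon count was 3 without null library 11 and 2 with 1 surrogate variable.

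Families known to differ in gene content between zebrafish stocks gave calls in both directions. In the list of such immune families 7 of 32 were higher and 5 lower, and 32 of 84 members passed the filter. Of these calls, 3 of the higher and 2 of the lower are of genes that passed the filter through 1 genotype only. The higher count was 4 without null library 10, and the lower count was 3 without wild-type library 2. nlrc8, an NLR-family gene, rose from 1.33, 1.12 and 0.648 CPM to 3.31, 4.1, 3.41 and 2.56 CPM (1.68 ± 0.23, adjusted p = 1.53e-05). In antigen presentation, with 2 of 20 higher and 4 lower, mhc1lia, which passed the filter through null libraries only, was higher (1.67 ± 0.36, adjusted p = 0.0021). The tapasin gene tapbp.2, which passed it through wild-type libraries only, fell from 1.44, 1.99 and 1.35 CPM to 0.52, 0.368, 0.549 and 0.412 CPM (-1.78 ± 0.27, adjusted p = 6.68e-05). Neither gene is support for the counts of this list. Of the 4 lower calls in that list, 2 are of genes that passed the filter through wild-type libraries only, and the lower count was 2 without wild-type library 2 and 1 with 1 surrogate variable. Zinc finger and BTB genes, a large set of DNA-binding proteins, were higher in 36 of 245 and lower in 12. znf1021 rose from 0.48, 0.765 and 0.594 CPM to 2.98, 2.37, 3.19 and 2.61 CPM (2.17 ± 0.26, adjusted p = 3.24e-06), and ZNF395 (ENSDARG00000024195) from 33.8, 33.6 and 26.9 CPM to 60.3, 54.6, 53.3 and 47.3 CPM (0.78 ± 0.08, adjusted p = 4.31e-07). The higher count was 22 without wild-type library 2 or null library 10, and the lower count 7 without wild-type library 2.

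Muscle, blood and skeleton moved little as groups. Skeletal muscle contractile genes gave 12 of 71 higher and 4 lower. Those higher included the parvalbumin pvalb3 (0.89 ± 0.1, adjusted p = 9.85e-07) and the myogenic factor MYOD1, which rose from 15.5, 16.8 and 16.3 CPM to 22.6, 23.4, 21.2 and 24.7 CPM (0.5 ± 0.084, adjusted p = 0.000159). Those lower included myhc4 (-2.23 ± 0.36, adjusted p = 0.00171), named above among the largest falls, and the troponin gene TNNI2 (ENSDARG00000005841, -0.37 ± 0.064, adjusted p = 0.000256). Another ID of that symbol, ENSDARG00000029995, was called higher at 0.35. Without wild-type library 4 the balance turned, with 5 higher and 9 lower, and the higher count was 6 without wild-type library 3 or null library 11 and 19 with 1 surrogate variable. Heart muscle genes gave 3 of 34 higher and 2 lower, and 0 higher without wild-type library 4. The 3 called higher were KLHL31 (0.35 ± 0.10), NFATC1 (0.42 ± 0.13) and myl4 (0.27 ± 0.092). Lower was atp2a2a, the calcium pump of the sarcoplasmic reticulum, at -0.45 ± 0.095 (adjusted p = 0.00172). Erythroid genes gave 5 higher and 5 lower of 36. Cartilage genes gave 7 of 40 higher and 4 lower, and the higher count was 0 without wild-type library 2 and 3 without null library 9. In that list the matrix gene ucmaa was lower, from 2.83, 2.86 and 1.67 CPM to 1.37, 0.946, 0.934 and 1.33 CPM (-1.08 ± 0.23, adjusted p = 0.00157). MATN3 (ENSDARG00000069265) was also lower (-0.47 ± 0.10), whereas SOX6 (0.28 ± 0.072) and SOX5 (0.20 ± 0.06) were among the 7 called higher. Bone and dermal matrix genes gave 3 of 38 higher and 6 lower. PHEX was higher (0.54 ± 0.073, adjusted p = 1.38e-05) and the fibronectin FN1 lower (ENSDARG00000006526, -0.8 ± 0.15, adjusted p = 0.00373). The lower bone count was 2 without any one of wild-type libraries 2 and 3 and null libraries 10 and 11. It was 10 without wild-type library 4.

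The remaining lists gave few calls or counts that turned on single libraries. Vascular endothelium, cell cycle genes and ribosomal proteins lay below the background of 21.6%, at 9.76%, 11.3% and 4.71% called. Vascular endothelium gave 2 higher and 2 lower of 41, cell cycle and replication 5 higher and 2 lower of 62, ribosomal proteins 3 higher and 1 lower of 85, and glia and myelin 2 higher and 3 lower of 34. Of the 85 ribosomal protein differences 77 were positive but small, with a median of 0.07, against -0.01 over all genes. The mean log2(CPM + 0.1) of that list overlapped, at 9.31, 9.21 and 9.26 in wild type and 9.25, 9.21, 9.40 and 9.45 in the null. In the glial list GFAP, the intermediate filament of astroglia, was lower, from 356, 373 and 423 CPM to 293, 302, 289 and 319.8 CPM (-0.35 ± 0.059, adjusted p = 0.00019). Synaptic and neuronal genes gave 1 higher and 12 lower of 88, with 1 lower without wild-type library 2 and 19 without wild-type library 4 or null library 9. Hox genes gave 8 higher and 1 lower of 47, all small, such as HOXB9 at 0.39 ± 0.072 (adjusted p = 0.000443), with 4 higher without wild-type library 2 and 13 without wild-type library 4. Ion transport and pituitary hormone genes gave 2 higher and 13 lower of 44, with 5 lower without wild-type library 2 and 8 without wild-type library 3. With 1 surrogate variable that list gave 5 higher and 3 lower. Germ cell genes gave 0 higher and 1 lower of 13, and olfactory and taste receptors 0 of 9 in either direction.

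The genotype difference was measured a second time in the TCDD libraries, which share no library with the DMSO comparison although they entered the same fit. There 5577 genes were called, or 25.8% of those tested. Of the 4670 genes called with DMSO, 3256 were called in the same direction with TCDD. That is 69.7% of the DMSO calls and 58.4% of the TCDD calls, and 2 genes were called in opposite directions. The sign of the difference was shared by 98.3% of the genes called with DMSO, against 78.2% of all genes tested. Of the 663 genes called with at least a 2-fold change, 471 were called the same way, or 71%.

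Several genes with large differences under DMSO had differences of like size under TCDD. FBN2 differed by 3.39 ± 0.29 with TCDD (adjusted p = 1.27e-06), ms4a17a.9 by -2.76 ± 0.25 (adjusted p = 1.13e-06), PIPOX by -2.51 ± 0.17 (adjusted p = 4.19e-10) and PNP by 1.57 ± 0.13 (adjusted p = 8.61e-07). The same held for ciarta (0.89), PER1 (ENSDARG00000012499, 0.88), cry3b (-1.05), HSPD1 (-0.68) and UNC45B (-0.73). With TCDD the immediate early list gave 23 of 29 higher and 0 lower, the heat shock list 37 of 66 lower, the sterol list 11 of 29 lower and the pigment list 12 of 41 higher, against 12.7% higher and 13.1% lower over all genes. Lens genes gave 5 higher and 1 lower in place of 17 and 0, liver genes 15 lower in place of 28, photoreceptor genes 5 lower in place of 11, and cell cycle genes 29 lower in place of 2.

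**Figure D5:**
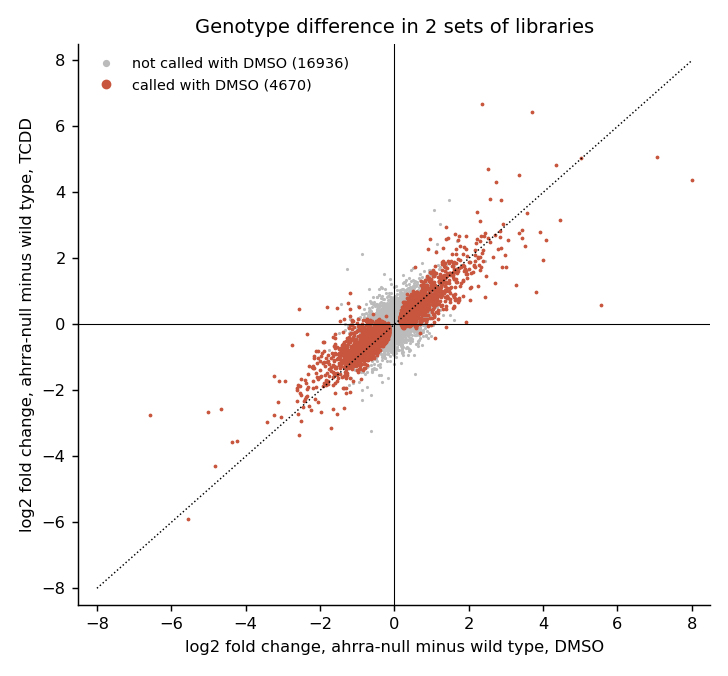
Log2 fold change of ahrra-null over wild type with DMSO (horizontal axis) against the same with TCDD (vertical axis) for the 21606 genes tested, with the 4670 genes called with DMSO in red and the others in grey, and a dotted line of equal change. Most red points lie in the lower left and upper right quadrants, and 98.3% of them have the same sign on both axes.

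The difference between these 2 genotype effects was tested as the genotype by TCDD interaction. In edgeR 0 genes passed the adjusted threshold, the smallest adjusted p was 0.277, and 1117 genes (5.17%) had an unadjusted p under 0.05, of which 373 were among the 4670. DESeq2 called 8 genes and limma voom 6. This test is made gene by gene and does not compare the counts of a list. Whether the counts of lens, liver, photoreceptor and cell cycle genes differ between exposures was thus not tested. For klf2b, at -0.75 with DMSO and 0.15 with TCDD, no interaction was called (adjusted p = 0.378).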

How the data were processed

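Per the labels' protocols, total RNA of whole embryos (BioRad Aurum kit) went into TruSeq libraries that do not keep the strand. cutadapt, TopHat2, SAMtools, HTSeq, edgeR and the build GRCz10 are named in the submitters' processing notes; no versions were given. The deposited values are whole-number counts per gene, as the authors made them, for 32105 Ensembl gene IDs, with 16852240 to 23081186 counts per library. Of these IDs, 26269 matched a symbol in the name table and 4301 share one. Reads of a gene and its antisense partner, or of near-identical copies, cannot be told apart. No coordinates are printed, since no annotation of that build was used here.

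From the counts, edgeR 4.0.16 (R 4.3.3) filtered genes by group (minimum count 10), scaled libraries by TMM and fitted 1 robust quasi-likelihood model to all 14 libraries in 4 groups, so that the spread was estimated over all groups (common biological coefficient of variation 7.19%). The genotype contrast within DMSO, the same within TCDD and their interaction were tested two-sided, with Benjamini-Hochberg adjustment over the 21606 genes tested, and SE was taken as |log2 fold change| over the root of the F statistic. Replicate pairs differed by more than sampling noise (chi-square per degree of freedom 3.99 to 17.3 over the 9 pairs of DMSO libraries), so none was counted as a duplicate. The script was tested on simulated data. The alternatives tried were DESeq2 1.42.0, voom of limma 3.58.1 with quality weights, scaling by median ratio or upper quartile, a filter of 1 read or of 1 CPM in 3 libraries, only the 7 DMSO libraries, 1 surrogate variable (sva 3.50.0), a 2-fold minimum and leaving out each library in turn; 22 of these refitted the model for single genes.

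The 40 gene lists (1387 of 1486 symbols found, 174 of them through a paralog suffix), the naming rule and the comparison itself were chosen with earlier results of these data known, so the lists are described by counts and medians without a test. Among called genes with a symbol and no overlap between genotypes, the rule names the 10 largest rises and 10 largest falls. This was done at an average log2 CPM of at least 1 and again at 5. The rule also names all AHR targets and ahr2, called or not. From each other list it takes at most 4 called members by adjusted p, with or without overlap. Genes matched to chromosomes fell short of what a check of position around ahrra needs (68.9% of the tested genes had one), so that check is void and its values are not given.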

Additional observations from a re-analysis of the deposited data

Results flagged for a closer look

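Among the 188 genes named by the rule, the 4 ahrra-null DMSO libraries were examined for a library far from the other 3, and 3 genes had one by Dixon's 95% criterion, which chance alone passes in about 1 of 20 groups. CRYAA, the lens chaperone, stood at 62.7 CPM in ahrra-null library 12, with the others between 48.2 and 50.5 CPM. gch2, the enzyme that starts pteridine synthesis, stood at 167 CPM in the same library, with the others between 144 and 146 CPM. The fibrinogen gene fga stood at 19.1 CPM in ahrra-null library 11, with the others between 15.1 and 15.8 CPM. All 3 genes kept their call without that library.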

How the results depend on the processing

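No paired analysis was possible because the labels give no batch, clutch or pairing of the libraries. The count of 4670 genes lay between 2844 (without wild-type DMSO library 2) and 5019 (without wild-type DMSO library 4) when single libraries were left out. It was 3332 with the 7 DMSO libraries alone and 3172 with 1 surrogate variable, of which 3284 and 2580 were among the 4670, and it lay between 4235 and 4943 under the other scalings, filters and tools. With a 2-fold minimum 663 genes remained for DMSO alone and 368 were called in both sets of libraries. The genes called with DMSO that also had an interaction numbered 0 in edgeR, 7 in DESeq2, 4 in limma voom and 0 to 5 without single libraries (5 without wild-type DMSO library 4). Of the 173 named genes that were called, 138 kept the call in all 22 refits and 0 changed sign; 1 surrogate variable ended 27 calls and leaving out wild-type DMSO library 2 ended 22, and the cause was not tested. Depth limits weakly expressed genes, and 10499 of the listed genes were not tested.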

Other observations

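Among the genes tested, 1500 symbols are shared by 2 or more gene IDs, and 18 of these symbols (1.2%) had IDs called in opposite directions. This count was made after the data had been seen. Besides RRM2, the widest divergences were in SERPINB1, at 2.02 for ENSDARG00000070396 and -0.61 for ENSDARG00000055416, and in the aminopeptidase ANPEP, at 0.24 for ENSDARG00000036809 and -1.44 for ENSDARG00000103878. For ANPEP the summed level of its 3 IDs was 26.2, 24.5 and 24.2 CPM in wild type and at 24.0, 29.3, 29.3 and 27.2 CPM in the null, with a log2 ratio of the means of 0.14. For ACADSB, a dehydrogenase of branched-chain acids, the IDs differed by 0.77 (ENSDARG00000098174) and -0.41 (ENSDARG00000076780), and the sums were 37.1, 35.1 and 29.9 CPM against 32.0, 32.7, 31.5 and 35.5 CPM. In the lens gene CRYGN the IDs also diverged, at 0.61 (ENSDARG00000030411) and -0.94 (ENSDARG00000102129), but the sums rose from 368, 447 and 455 CPM to 558, 561, 624 and 827 CPM. Whether reads moved between copies was not tested.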
